A study of Mus musculus with 19 samples.

Results

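Titin is the giant protein that reaches from the Z-disc, the edge of the contractile unit, to the M-line at its centre, and acts as the molecular spring that returns stretched muscle to length. Its mRNA is the longest known in the mouse. Alternative splicing of the exons that encode the elastic part yields a shorter, stiffer cardiac form (N2B) and longer, more compliant forms (N2BA), and the balance between them sets how stiff the ventricle is when it fills. The splicing factor RBM20 favours the shorter form in the adult heart.

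The members described here are all transcripts of at least 75000 bases in the RNA-seq tables. There were 4 of them among 96626 transcripts. ENSMUST00000099981.8 has 106824 bases, ENSMUST00000111882.8 has 101674, ENSMUST00000111846.8 has 100404 and ENSMUST00000011934.11 has 81843. The tables hold transcript IDs without gene names, and none of the IDs was matched to a name in the reference tables, so the assignment to titin rests on length. The gap below them is wide: the next longest transcripts have 40378, 26901 and 25437 bases, with mean abundances of 0.0471, 12.1 and 0.0240 TPM (an abundance corrected for transcript length and library size). Which of the 4 corresponds to N2B or N2BA is not given in the sources used here. They are called below the leading transcript (81843 bases, the most abundant), the second (100404 bases), the longest (106824 bases) and the rarest (101674 bases).

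The left ventricle was sampled in 4 groups of 3 libraries each. JP2NT-OE mice overexpress JP2NT, the N-terminal part of the membrane-anchoring protein junctophilin 2, with an HA tag. The α-MHC promoter directs the transgene to cardiac muscle, and littermates lacking it were the controls. Each genotype was studied at baseline, without surgery, and 3 weeks after TAB (transverse aortic banding), in which a constricted aorta makes the ventricle pump against higher pressure. Banding was done in males at 9 weeks of age and all hearts were taken at 12 weeks. The labels give no sex for the unoperated mice. They list no sham operation, so banding and surgery cannot be told apart. Whether the numbered replicates are different mice is not stated in the labels. P-values therefore measure the spread between libraries, which may be technical. In bulk tissue, fewer muscle cells and less RNA per cell cannot be told apart. Because the IDs were not paired with names, the tissue was not checked against marker genes.

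In RefSeq (GRCm38.p6) the titin gene, Ttn, lies on the minus strand of chromosome 2, from 76703980 to 76982557, a span of 278578 bases with 4 RefSeq transcripts. RefSeq's promoter table takes the gene's start at 76982547, 10 bases inside that span. The 250 bases upstream of this start are shown because the study also immunoprecipitated TBP, which binds the TATA box, and MEF2C, a muscle transcription factor that binds the MEF2 motif. Capitals mark the single TATAA match, which starts 28 bases before the transcript start, and the single match to the MEF2 motif, which starts 166 bases before it. The region is chr2:76982548-76982797, read 5′ to 3′ on the minus strand.
Ttn upstream region: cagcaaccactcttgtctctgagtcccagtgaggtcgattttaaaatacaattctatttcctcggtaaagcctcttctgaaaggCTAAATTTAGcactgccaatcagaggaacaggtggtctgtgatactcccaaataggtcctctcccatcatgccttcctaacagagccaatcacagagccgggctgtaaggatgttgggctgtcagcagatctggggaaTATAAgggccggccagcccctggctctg
Among 32851 RefSeq promoter windows of the same length, 22.8% held TATAA on either strand and 2.92% held the MEF2 motif on either strand. The MEF2 match reads as the motif on both strands. A match is a description of the letters and not evidence of binding, and the chromatin immunoprecipitation samples were not analysed here. Whether the 4 Ensembl transcripts start at this RefSeq start is not given in the tables.

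The leading transcript carried nearly all of the giant message in every library. It held between 93.3% and 95.2% of the summed TPM of the 4, and the second held between 4.69% and 6.59%. The longest held between 0.0285% and 0.135% and the rarest at most 0.0231%. The order leading, second, longest, rarest was the same in all 12 libraries. The abundances were 76.8 TPM for the leading, 4.32 for the second, 0.0414 for the longest and 0.00863 for the rarest, as means over the 12 libraries. The shortest of the giants was thus the common one, and the second is 18561 bases longer.

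The leading transcript stood far higher by reads than by copies. It ranked between 618 and 908 among all transcripts by TPM but between 15 and 20 by estimated count. The 4 together took between 0.468% and 0.741% of all estimated counts in a library. Its estimated count was never below 188205, and that of the second was never below 13492. The longest rested on 74.4 to 392 estimated counts and the rarest on 0 to 59.9. Reads from sequence that the isoforms share were divided among them by the authors' software, so the values of the longest and the rarest are less certain than their counting error. The share of the second transcript depends on the same division.

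The first question was what banding did to the giant message in control hearts. The leading transcript stood at 58.0, 56.7 and 71.3 TPM in the 3 baseline libraries and at 88.1, 95.7 and 85.7 TPM in the 3 banded libraries. All banded libraries lay above all baseline libraries, and the ratio of the group means was 1.45. Of all tested transcripts, 32.2% were higher in TPM without overlap in this comparison, so such a separation was common. The second transcript stood at 3.69, 3.33 and 3.96 TPM at baseline and at 4.57, 5.09 and 4.44 TPM after TAB, again without overlap, with a ratio of 1.28.

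The size of that difference depended on how the libraries were scaled. On the scale of TMM-adjusted CPM (counts divided by library size, after a correction that places the typical transcript near no change), the leading transcript stood at 4903 ± 423 in the baseline group and 5740 ± 409 in the banded group (SD, n = 3), without overlap. In CPM, 14.4% of all tested transcripts were higher without overlap. The log2 fold change was 0.23 (SE 0.095), a 1.17-fold difference with a 95% interval of 1.01 to 1.35, and the edgeR adjusted p was 0.189. For the 4 transcripts summed into 1, which does not depend on how reads were divided among the 4, the log2 fold change was 0.22 (SE 0.093, edgeR adjusted p = 0.202). Neither passed a threshold of 0.05, which 8.60% of all tested transcripts did. Those that passed as higher were 4.16% of all tested. The summed value was 0.15 without control TAB replicate 2, which had the highest level of its group.

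Scaling by library totals or by TPM gave a larger difference in the same libraries. With library totals alone the summed giant transcripts were higher by 0.39 on the log2 scale (SE 0.084, edgeR adjusted p = 0.0140), and the median of all transcripts was then at 0.19. Under that scaling 9.00% of all tested transcripts passed as higher. With limma on log2(TPM + 1) the difference was 0.52 (SE 0.095, limma adjusted p = 0.00688), with the median of all transcripts at 0.07. There 9.91% of the 67945 transcripts tested passed as higher, so calls of this kind were commoner under both settings. Set against the median transcript, the summed giants were higher by a similar amount with TMM and with library totals, and by more with limma. The limma median covers a larger set of transcripts and depends on the constant added to TPM. With log2(TPM + 0.1) it was at 0.22, beside 0.53 for the summed giants. The larger excess with limma is therefore not a like-for-like comparison with edgeR. The 20 most abundant transcripts took a smaller share of counts after TAB in these hearts, between 34.6% and 35.2% against 40.5% to 43.1% at baseline. The part of this shift in the difference was not tested.

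**Figure D1:**
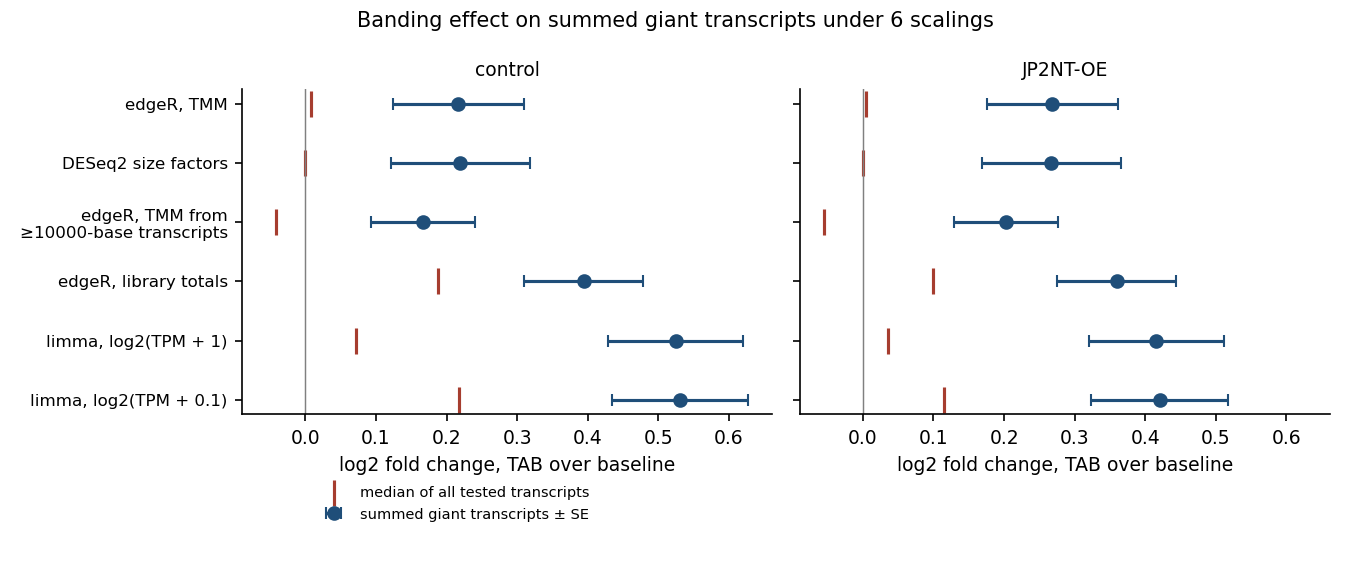
Log2 fold change of the 4 giant transcripts summed, TAB over baseline, in control (left) and JP2NT-OE hearts (right) under 6 scalings. Points are fitted values with SE and red ticks are the median of all tested transcripts under the same scaling. In controls the value runs from 0.17 with TMM factors taken from long transcripts to 0.53 with limma on log2(TPM + 0.1), and the median transcript moves with the scaling too.

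In JP2NT-OE hearts the leading transcript stood at 63.2, 65.1 and 69.7 TPM at baseline and at 92.6, 79.5 and 96.3 TPM after TAB. The groups did not overlap and the ratio of the means was 1.36, in a comparison in which 17.6% of all tested transcripts were higher in TPM without overlap. In CPM it stood at 5189 ± 27.1 in the baseline group and 6323 ± 860 in the banded group (SD, n = 3), without overlap, and 9.38% of all tested transcripts were higher without overlap on that scale. The baseline libraries were very close to each other, and most of the spread was among the banded ones. The log2 fold change was 0.29 (SE 0.095, edgeR adjusted p = 0.243), a 1.22-fold difference with a 95% interval of 1.05 to 1.41. It did not pass, and 0.238% of all tested transcripts passed here. For the summed giants edgeR gave 0.27 (SE 0.093, adjusted p = 0.262), and 0.17 without JP2NT-OE TAB replicate 3, the highest of the group. The second transcript stood at 3.89, 4.60 and 4.002 TPM at baseline and at 5.09, 4.44 and 4.74 TPM after TAB. These groups overlapped, and edgeR put the log2 fold change at 0.03 (SE 0.090, adjusted p = 0.950).

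**Figure D2:**
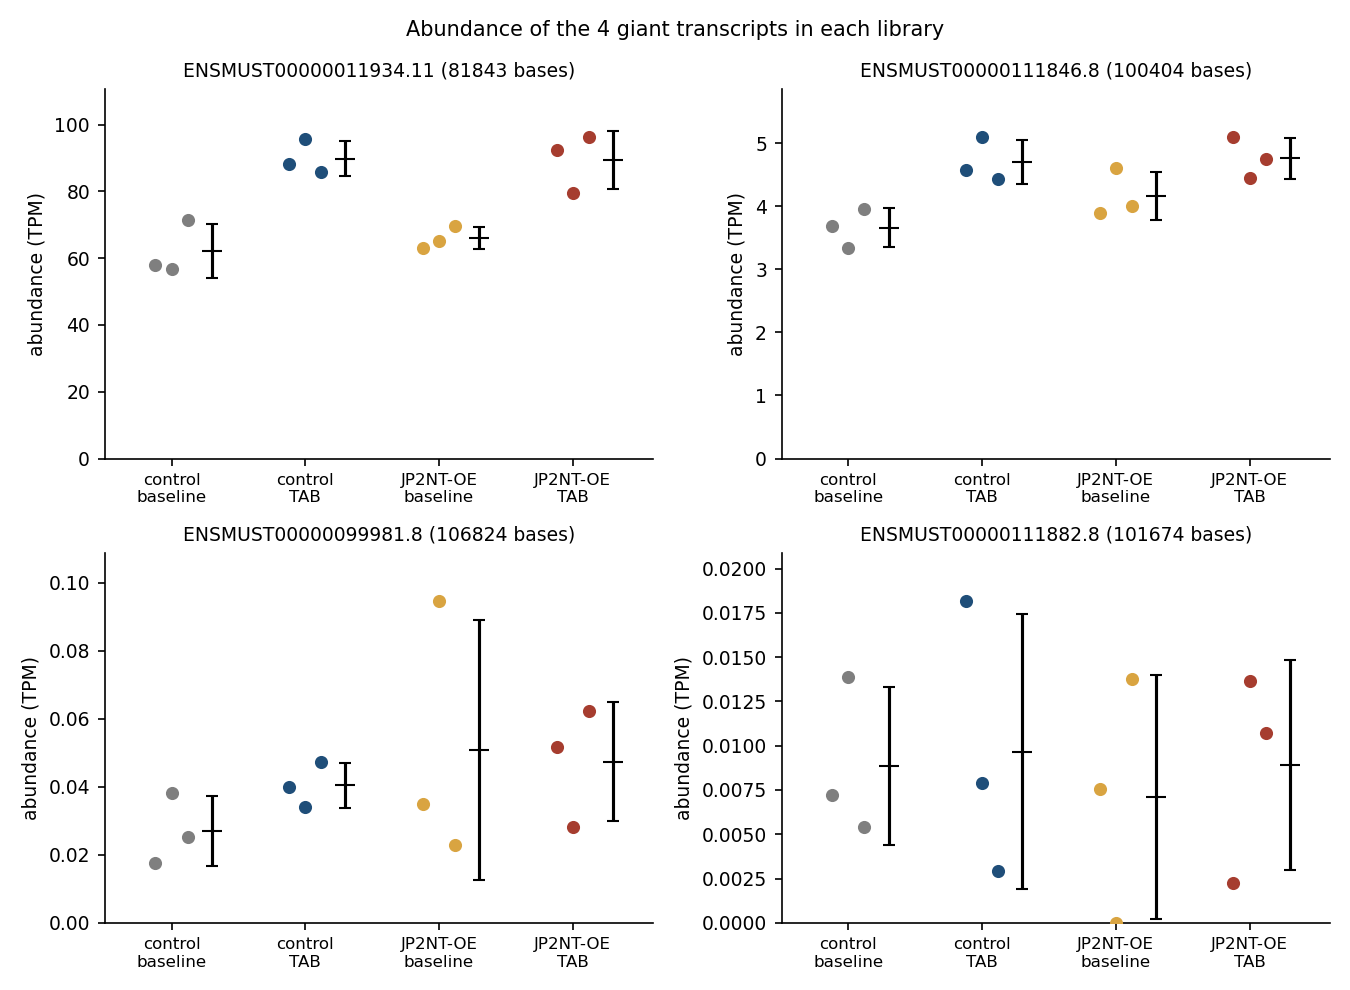
Abundance in TPM of each of the 4 giant transcripts in each of the 12 libraries, by group, with the mean and SD of each group beside the 3 points. The leading transcript lies above its baseline libraries in every banded library of both genotypes, while the groups of the longest and the rarest overlap.

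None of the 4 members passed in any of the 5 comparisons with edgeR on the TMM scale. Before adjustment the leading transcript alone was under 0.05 for banding in control, where 22.0% of all tested transcripts were, and for banding in JP2NT-OE, where 12.0% were. No member was for genotype at baseline (4.39% of all tested transcripts), genotype after TAB (10.4%) or the interaction (8.65%). DESeq2 also called 0 members for banding. Its lowest adjusted p was 0.116 in control, where it called 14.1% of transcripts with an adjusted p, and 0.0858 in JP2NT-OE, where it called 4.41%, both for the leading transcript. Limma on log2(TPM + 1) called 1, the leading transcript for banding in control (limma adjusted p = 0.0070), where 9.91% of all transcripts tested passed as higher. So did the fit with library totals (edgeR adjusted p = 0.0141), where 9.00% passed as higher, and limma on log2(TPM + 0.1), where 9.48% did.

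The make-up of the giant message differed between banded and unoperated hearts: the share of the second transcript, the longer form, fell when both genotypes were tested together, by a test that passed narrowly. In controls it made up 5.98%, 5.55% and 5.25% of the giant TPM at baseline and 4.93%, 5.05% and 4.92% after TAB. In JP2NT-OE hearts it made up 5.79%, 6.59% and 5.43% at baseline and 5.21%, 5.29% and 4.69% after TAB. In both genotypes every banded library lay below every baseline library, and the banded controls were the most alike. How often the isoform shares of other genes separate in this way was not counted. Separation was common for levels: in TPM, 32.2% of all tested transcripts were higher without overlap in control and 17.6% in JP2NT-OE.

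The mean share of the second transcript went from 5.59% ± 0.365 to 4.97% ± 0.0723 in controls and from 5.94% ± 0.593 to 5.07% ± 0.327 in JP2NT-OE (SD, n = 3). The difference, banded minus baseline, was -0.626 percentage points in controls and -0.871 in JP2NT-OE. Each had an exact two-sided permutation p of 0.1, below which groups of 3 cannot go. When banding was exchanged within genotype over 400 assignments, the mean difference was -0.748 points and the exact two-sided permutation p was 0.005, the smallest these permutations can give. That p restates the lack of overlap in both genotypes and is not separate support. The difference was in the same direction in both genotypes, and the permutation p adjusted over the 49 such tests computed was 0.049. In that family 5 tests reached 0.049. Of these, 4 restate this shift as the share of the second or leading transcript, their ratio or the mean length. The fifth was the summed giant TPM, higher by 26.4 TPM after banding over both genotypes (exact two-sided permutation p = 0.005). How many of all transcripts reach that p was not counted. In TPM, 32.2% of all tested transcripts were higher without overlap in control and 17.6% in JP2NT-OE. On the TMM scale the sum did not pass in either genotype (edgeR adjusted p = 0.202 in control and 0.262 in JP2NT-OE). All 5 tied at the smallest p, and the adjusted value depends on how many tests tie there. The restating tests thus helped the call to pass. With 1 library left out and all 49 tests recomputed, the adjusted permutation p stayed under 0.05 for 4 of the 12 libraries and not for 8. The difference itself then ran from -0.875 to -0.586 points, with an exact permutation p from 0.005 to 0.015 over 200 assignments. The adjusted permutation p was 0.147, 0.098 and 0.147 without control TAB replicates 1, 2 and 3. It was 0.0613 and 0.098 without JP2NT-OE baseline replicates 1 and 2. For replicate 1 the exact permutation p was still 0.005, and fewer tests tied with it. Leaving out the banded JP2NT-OE libraries, replicates 1, 2 and 3 in turn, gave 0.123, 0.098 and 0.245. The leading transcript's share is nearly the mirror of this, with differences of 0.628 points in controls and 0.895 in JP2NT-OE. Without JP2NT-OE baseline replicate 2, which had the largest share of the second transcript, the leading transcript's difference in JP2NT-OE was 0.543 points.

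Put as a ratio, there were 5.93 ± 0.410 copies of the second transcript per 100 copies of the leading one in control baseline hearts and 5.23 ± 0.0796 after TAB (SD, n = 3). In JP2NT-OE hearts there were 6.32 ± 0.675 at baseline and 5.34 ± 0.362 after TAB. The TPM-weighted mean length of the giant message went from 82894 to 82778 bases in controls and from 82965 to 82797 bases in JP2NT-OE. The shift was small against the whole, since the leading transcript predominated in all 4 groups. It also rests on how the authors' software divided shared reads between the isoforms, and the part of that division in the shift was not tested. The level of the second transcript itself, in CPM, had a log2 difference of 0.05 in controls (SE 0.090, edgeR adjusted p = 0.820), beside 0.23 for the leading one.

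**Figure D3:**
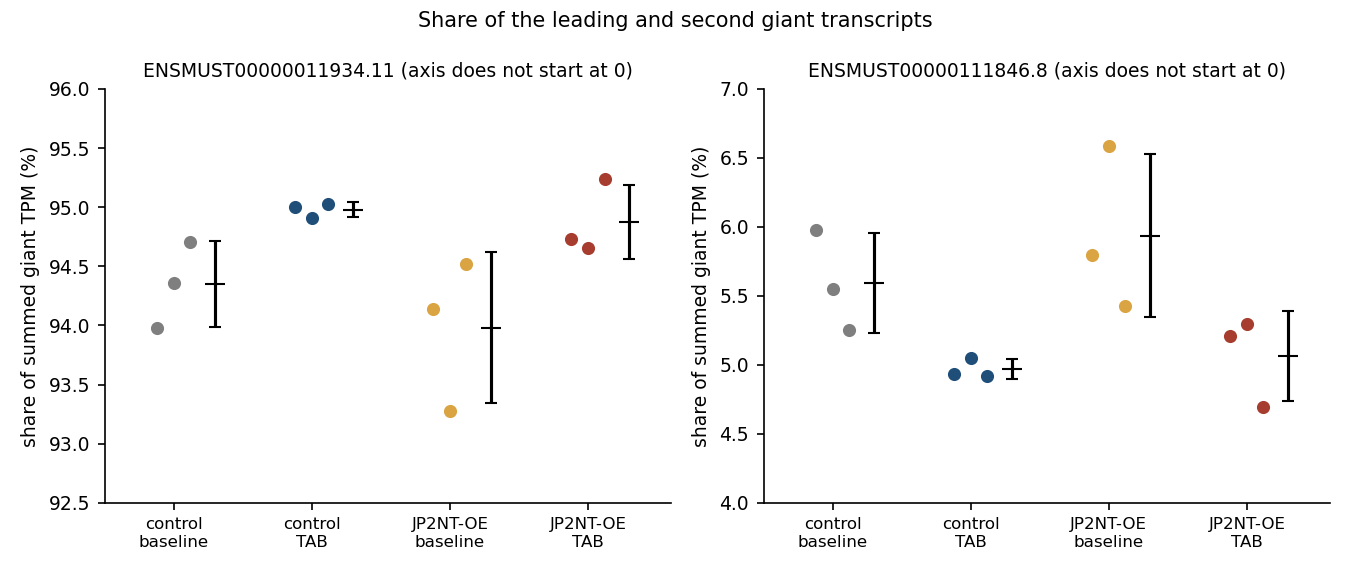
Share of the leading (left) and second (right) transcript in the summed TPM of the 4 giant transcripts, per library, with the mean and SD of each group. The axes do not start at 0. In both genotypes the banded libraries lie above the baseline libraries for the leading transcript and below them for the second.

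A property of the libraries moved together with this share. The difference between a transcript's length and its effective length, which reflects the fragment length the authors' software used for a library, was 161.3 to 163.2 bases in control baseline and 165.4 to 166.0 bases in control TAB libraries. It was 159.5 to 162.4 bases in JP2NT-OE baseline and 163.5 to 164.9 bases in JP2NT-OE TAB libraries. It was larger in banded libraries in both genotypes, without overlap. Among the 6 baseline libraries the share of the second transcript was lower where this difference was larger (Pearson r = -0.898, exact permutation p = 0.0222, Spearman rho = -0.714, exact permutation p = 0.136). The adjusted p over the 4 coefficients computed was 0.0889 and 0.272, and without the 2 libraries farthest from the median fragment length r was -0.917 over 4 libraries. Among the 6 banded libraries Pearson r was -0.267 (exact permutation p = 0.611) and Spearman rho was -0.143 (exact permutation p = 0.803), with adjusted p of 0.803 for both. Without the 2 farthest libraries r was 0.0813, on the other side of 0. The part of fragment length in the difference between banded and baseline hearts was not tested, and it cannot be told apart from banding in these groups. This comparison was chosen after the data were seen.

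**Figure D4:**
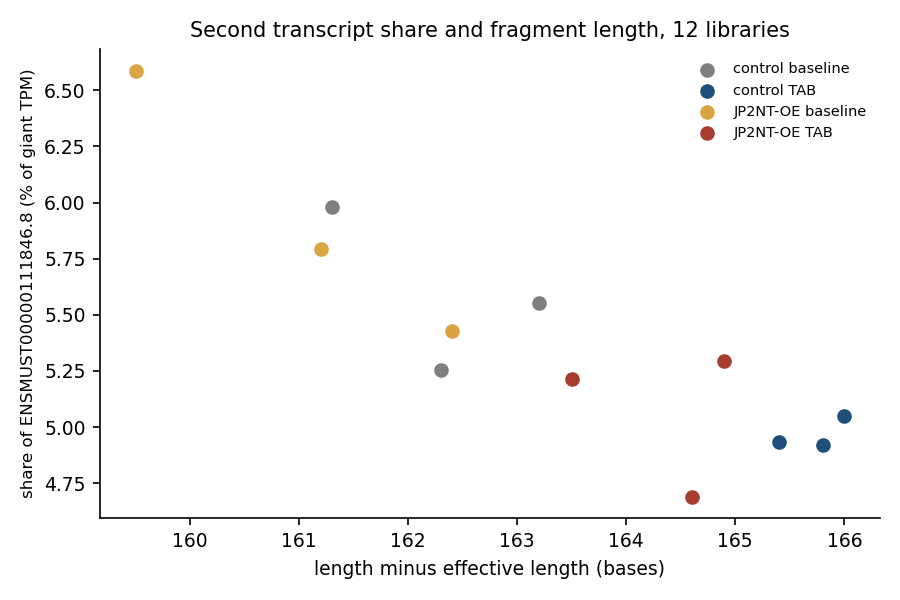
Share of the second transcript in the giant TPM (%) against length minus effective length (bases) in the 12 libraries, coloured by group. JP2NT-OE baseline replicate 2 has the smallest difference (159.5 bases) and the largest share (6.59%), and all banded libraries lie to the right of all baseline libraries.

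The transgene itself was compared with its absence in unoperated hearts. Levels and shares of the leading transcript overlapped between the genotypes, and the ratio of JP2NT-OE to control was 1.06 in TPM. The log2 fold change of the summed giants was 0.09 (SE 0.093, edgeR adjusted p = 1), with a 95% interval from 0.922-fold to 1.23-fold. It was 0.047 without control baseline replicate 1 and 0.16 without control baseline replicate 3. In this comparison 0.00694% of all tested transcripts passed. For the second transcript the log2 fold change was 0.18 (SE 0.090, edgeR adjusted p = 1), with a 95% interval from 0.986-fold to 1.30-fold, and 0.095 without JP2NT-OE baseline replicate 2. Its share was higher by 0.343 percentage points in JP2NT-OE, with overlapping groups (exact two-sided permutation p = 0.6). The leading transcript's share differed by -0.37 points in the same comparison. That value was -0.018 without JP2NT-OE baseline replicate 2, -0.64 without JP2NT-OE baseline replicate 3 and -0.19 without control baseline replicate 3.

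In banded hearts the genotypes also overlapped. The leading transcript ranged from 85.7 to 95.7 TPM in control TAB and from 79.5 to 96.3 TPM in JP2NT-OE TAB libraries, so the JP2NT-OE group held both the lowest and the highest value. The summed giants stood at 94.6 ± 5.54 and 94.2 ± 9.08 TPM (SD, n = 3). On the CPM scale the log2 fold change was 0.14 (SE 0.093, edgeR adjusted p = 0.705), with a 95% interval from 0.956-fold to 1.27-fold, and the sign turned with limma on log2(TPM + 1), where it was -0.0082. It was 0.048 without JP2NT-OE TAB replicate 3 and 0.24 without JP2NT-OE TAB replicate 2. In this comparison 0.451% of all tested transcripts passed. The share of the second transcript was 4.97% in control and 5.07% in JP2NT-OE banded hearts, a difference of 0.0972 percentage points (exact two-sided permutation p = 0.7).

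Whether banding acted differently in the 2 genotypes was tested directly. The log2 banding effect on the summed giants was higher by 0.05 in JP2NT-OE (SE 0.13, edgeR adjusted p = 0.965), with a 95% interval from 0.847-fold to 1.27-fold. The sign of this difference turned without control baseline replicate 3 (-0.014) or JP2NT-OE TAB replicate 3 (-0.042) and with library totals alone (-0.035). In all, 0.00231% of tested transcripts passed here. For the share of the second transcript the banding effects differed by -0.246 percentage points, with genotype exchanged within treatment (exact two-sided permutation p = 0.635 over 400 assignments). Over both treatments the genotypes differed in that share by 0.22 points (exact two-sided permutation p = 0.36). The 95% intervals of the fold changes are wide enough to hold differences of about the size of the banding effect itself, so they do not show that the genotypes were alike.

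**Figure D5:**
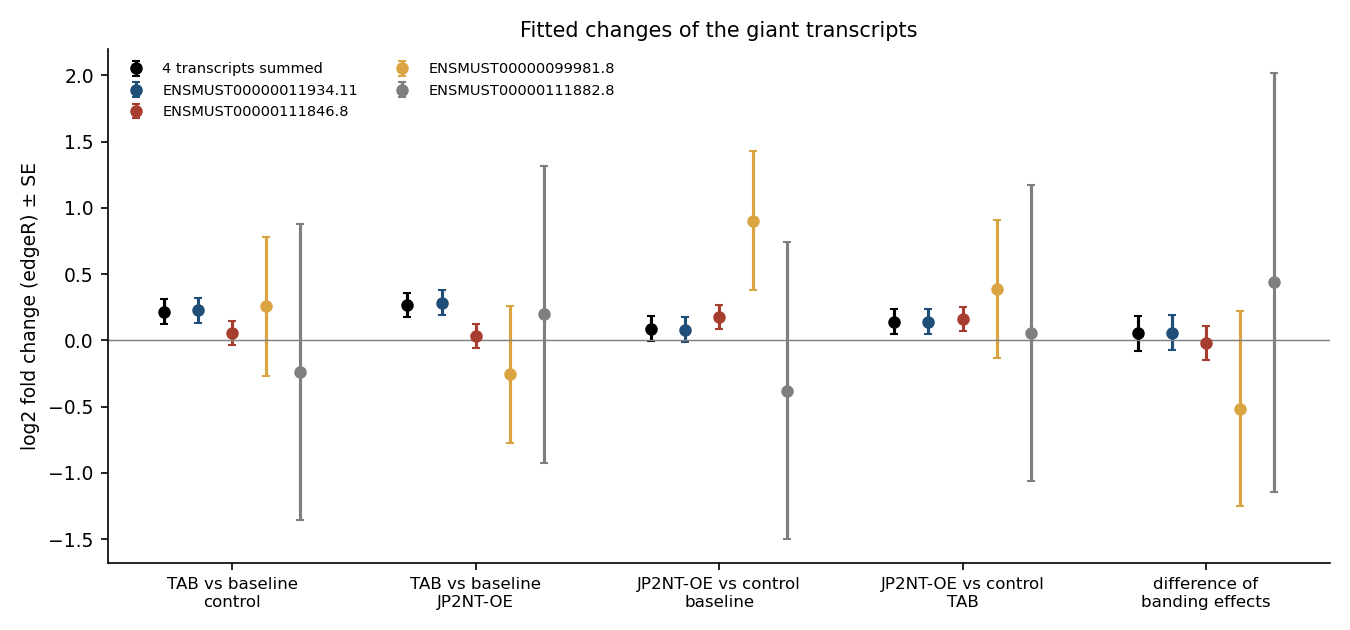
Log2 fold change with SE (edgeR, TMM-scaled counts) of the 4 giant transcripts summed and of each transcript in the 5 comparisons. The summed and leading values lie at 0.22 to 0.29 for banding in both genotypes, and the longest and rarest transcripts have errors from 0.52 to 1.58 that cover 0 in all comparisons except genotype at baseline for the longest.

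The longest transcript was measured at 74.4, 169 and 91.6 estimated counts in unoperated controls and at 139, 138 and 174 in banded controls. In JP2NT-OE it had 155, 392 and 96.6 at baseline and 256, 107 and 268 after TAB. All 4 groups overlapped, and the spread was widest at JP2NT-OE baseline, where replicate 2 had more than any other library. Its largest log2 fold change, 0.90 for genotype at baseline (SE 0.52, edgeR adjusted p = 1), was 0.09 without that library.

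The rarest transcript had 29.1, 58.6 and 18.8 estimated counts in unoperated controls and 59.9, 30.4 and 10.2 in banded controls. In banded JP2NT-OE hearts it had 10.6, 49.6 and 44.0. At JP2NT-OE baseline it had 31.9 and 55.0 in replicates 1 and 3 and was listed at 0 in replicate 2, the library in which the longest transcript was at its highest. With so few estimated counts the 95% intervals of its fold changes ran from 0.152 to 4.73 for banding in control and from 0.204 to 6.43 for banding in JP2NT-OE. Differences of that size were not detectable with these libraries.

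The pattern of the summed giants across libraries was then compared with that of 3605 tested transcripts at a mean log2 CPM of at least 5. The 2 most alike were ENSMUST00000076817.4, of 12382 bases, and ENSMUST00000173867.7, of 2484 bases. Over the 12 libraries Pearson's r was 0.894 and 0.883, and Spearman's rho was 0.587 and 0.762. The median correlation over the 3605 was -0.037, and none reached 0.9. The 12 libraries share the 4 groups and their depth, so these are descriptions. Their own log2 differences for banding in control were 0.08 and 0.05 (adjusted p from edgeR 0.581 and 0.770). For banding in JP2NT-OE both were 0.13 (adjusted p from edgeR 0.482 and 0.528).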

How the data were processed

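The series has 19 samples. The 12 RNA-seq samples were analysed and the 7 chromatin immunoprecipitation samples were not used here. Per the labels' protocols, stranded libraries were made from polyadenylated RNA. Of the tools in the submitters' processing notes, which give no role or order, kallisto 0.42.5 is the one that estimates transcript abundance, and cutadapt 1.8.1 trims reads. The build named there is mm10. The transcript annotation is not given in the sources used here. Per the file headers, each of the 12 tables has 96626 transcripts with their length, effective length, estimated counts and TPM. The authors' estimated counts hold fractions of reads, since a read shared by isoforms is split between them. TPM as deposited sums to 1000000 per library. Total estimated counts ran from 37662212 to 53097801, and no 2 libraries were identical.

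Estimated counts were rounded and tested with edgeR 4.0.16 (R 4.3.3): filterByExpr, which left 43256 transcripts including all 4 giants, TMM factors, 1 mean per group over 12 libraries (8 residual degrees of freedom) and the quasi-likelihood test. P-values were Benjamini-Hochberg adjusted over all tested transcripts, with a threshold of 0.05. A second fit replaced the 4 giants by their sum. DESeq2 1.42.0, limma 3.58.1 on log2(TPM + 1) or log2(TPM + 0.1) of 67945 transcripts above 0 in at least 3 libraries, other scalings, no filter and leaving out each library were alternatives. Shares of the giant TPM were compared with exact permutation tests over libraries. The code was tested on simulated data. All 4 members are named, with the 3 transcripts next in length and the 2 with the highest correlation. Pathway and cell type lists were not used, because 0 IDs were matched to names. The members, lists and tests were chosen with earlier results of these data known.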

Additional observations from a re-analysis of the deposited data

How the results depend on the processing

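Of 565 alternative values over 31 results, 506 kept their direction and their side of the threshold, 6 passed where the reported value had not, 45 changed sign, all for values that had not passed, and 8 lost the call. Of the 31, the pooled share of the second transcript was the 1 result that had passed, so the others had no call to lose. The summed giant TPM over both genotypes, which also reached an adjusted permutation p of 0.049, was not among the 31. Banding in control, summed giants: log2 fold changes of 0.39 with library totals alone, 0.52 with limma on log2(TPM + 1) and 0.53 with log2(TPM + 0.1) passed, as did 4814, 7325 and 7052 transcripts in all, against 3723 in the reported fit; leaving out 1 library gave 0.15 to 0.28. The leading transcript passed under the same 3 (0.41, 0.53 and 0.54). The sum ran from 0.047 to 0.16 for genotype at baseline and from 0.048 to 0.24 for genotype after TAB without 1 library. Genotype after TAB: the 2 limma fits gave -0.0082 and -0.0083 for the sum and -0.0097 and -0.0099 for the leading transcript. For the interaction, library totals and the 2 limma fits gave -0.035, -0.11 and -0.11 for the sum and -0.029, -0.10 and -0.11 for the leading transcript; leaving out 1 library gave -0.042 to 0.15 and -0.040 to 0.16. TMM factors from long transcripts, an alternative chosen after seeing the data, gave -0.031 for the second transcript with banding in JP2NT-OE. Without 1 library the second transcript ran from -0.022 to 0.090 (banding in control), -0.026 to 0.12 (banding in JP2NT-OE) and -0.086 to 0.068 (interaction), and the longest from -0.62 to 0.55 (banding in JP2NT-OE) and -0.91 to 0.30 (interaction). The rarest ran from -1.05 to 0.30, -0.38 to 1.01, -1.19 to 0.20, -0.37 to 0.87 and -0.14 to 1.25 over the 5 comparisons in the order of the report. It was at 0.0011 and 0.0090 for banding in control with the 2 limma fits, and at -0.042, -0.0011 and -0.0091 for genotype after TAB with library totals and the 2 limma fits. The leading transcript's share ran from -0.64 to -0.018 points for genotype at baseline, from -0.28 to 0.0061 for genotype after TAB and from -0.085 to 0.54 for the interaction. The fall in the second transcript's share over both genotypes ran from -0.875 to -0.586 points without 1 library (exact permutation p from 0.005 to 0.015, adjusted 0.049 to 0.245), which ended the call for 8 of the 12 libraries, and was -0.895 as a share of estimated counts (adjusted permutation p = 0.049). Causes were not tested. DESeq2 gave no adjusted p for the rarest transcript in the interaction.

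Same-numbered libraries did not deviate together (correlations from -0.091 to 0.092 over 12 pairs), and 9 of 24 best matches had their own number. No pairing by number was thus seen. With 3 libraries per group this check cannot exclude that equal numbers share an origin, such as a batch. With the replicate block the summed giants had log2 fold changes of 0.22 for banding in control (edgeR adjusted p = 0.236) and 0.26 in JP2NT-OE (edgeR adjusted p = 0.346), with 0.09, 0.14 and 0.044 for the other 3 comparisons, and no call on a member changed. Calls over all transcripts went from 3722 to 3040 for banding in control, from 103 to 0 in JP2NT-OE (4817 at an unadjusted p under 0.05) and from 195 to 15 for genotype after TAB.

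Few estimated counts and the division of shared reads among isoforms leave the values of the longest and the rarest transcript uncertain. The share of the second transcript depends on that division too. With 3 libraries against 3 no permutation p can be below 0.1, so a p of 0.1 there is no sign of stability.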

Other observations

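Other long transcripts took larger shares of the libraries after banding as well. The 21 transcripts of 20000 to under 75000 bases took 0.162% ± 0.0172 of estimated counts in unoperated controls and 0.210% ± 0.0187 in banded controls (SD, n = 3), 1.29 times as much. The 514 transcripts of 10000 to under 20000 bases went from 1.75% ± 0.0942 to 2.29% ± 0.134, 1.31 times as much, and the 4 giants from 0.501% ± 0.0536 to 0.658% ± 0.0366, also 1.31 times as much. The classes of 2000 to under 5000 and of 5000 to under 10000 bases each took 1.08 times as much, also without overlap. Transcripts under 2000 bases went from 56.8% ± 1.16 to 52.8% ± 0.479, so every class but the shortest rose. In JP2NT-OE the corresponding ratios were 1.23, 1.17 and 1.28 for the 3 long classes. They were 1.02 and 1.01 for the classes between and 0.977 for the short one, all with overlapping groups. No test was run on these shares, and their part in the level of the giants was not tested.

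On the TMM scale the same length classes were read from their medians. Among tested transcripts with a mean log2 CPM of at least 5, the median log2 fold change for banding in control was 0.0027 for the 131 of 10000 to under 20000 bases, -0.025 for the 7 of 20000 to under 75000 bases and -0.052 for all 3607. The leading and second giants were at 0.23 and 0.05. The quartiles ran from -0.15 to 0.19 for the 131 and from -0.15 to 0.65 for the 7. The 0.23 of the leading giant thus lay above the first range and inside the second. In JP2NT-OE the same medians were -0.0033, 0.18 and -0.034, beside 0.29 and 0.03. There the quartiles ran from -0.12 to 0.13 for the 131 and from -0.098 to 0.60 for the 7. With TMM factors taken from long transcripts, the summed giants were at 0.17 in controls and 0.20 in JP2NT-OE.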
